A study of Mus musculus with 7 samples.

Results

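The gene expression of regrowing plantaris muscle on the third day of reloading (d3) was set against its flanking time points, d1 and d5. For each gene the log2 intensity of the d3 array was compared with the mean of the log2 intensities of the d1 and d5 arrays. A gene was called when its d3 value lay above or below both neighbours and its distance from their mean was at least 0.32 on the log2 scale, called the threshold below. Of 19938 genes with a single symbol, 11351 were kept because their mean over all 7 arrays reached the median row. Of the kept genes, 61 were called above both neighbours and 70 below both. The comparison uses 3 of the 7 arrays of the series.

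The left plantaris was taken from male C57BL/6J mice aged 5 months. The control, d0, was the muscle at the end of 2 weeks of hind limb suspension, and d1, d3, d5, d7, d10 and d14 followed after that many days of regrowth. All 7 groups had been suspended, so none is a muscle that was never unloaded. Each day was measured once, on 1 Affymetrix Mouse Gene 1.0 ST array with RNA pooled from 6 animals.

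Since each day is 1 array, no error and no p-value can be attached to a difference, and precision is limited by that number of arrays. Every value below describes these arrays, and no difference could be set against a spread between animals. In whole muscle, fewer cells of a type and less RNA per cell cannot be told apart.

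When a muscle that has lost mass bears load again, its fibres switch on stress, chaperone and ribosome building genes and then add contractile protein. White blood cells enter, connective tissue cells divide and lay down matrix, and fibres can shift between slow and fast forms. Slow fibres carry their own isoforms of myosin and troponin, neutrophils carry granule proteins made in the bone marrow, and dividing cells carry cyclins and centromere proteins, so these genes report on different cells within one sample.

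The arrays were of like brightness, with median intensities from 128.1 to 131.8 over 35556 rows. The tissue label held against its markers. All 18 fast fibre contractile genes were kept, and the geometric mean of their intensities lay between 10143 at d1 and 11172 at d10. One value recurred on 3 or more of the 7 arrays in 2971 kept genes (26.2%), and d3 tied with a neighbour in 1672 (14.7%). Mki67, for example, lay equally far from both neighbours because d1 and d5 held the same number. The part of these repeated values in the results was not tested.

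Among the kept genes 2515 (22.2%) lay above both neighbours at d3 by any amount and 2608 (23.0%) below both. A further 1363 had d3 between a lower d1 and a higher d5, and 3193 (28.1%) between a higher d1 and a lower d5. The step from d1 was the larger of the pair. Between d1 and d3, 846 genes differed by at least the threshold, and between d3 and d5 215 did. Over genes, the log2 differences had a robust SD of 0.135 for d1 and d3 and of 0.0901 for d3 and d5.

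Calls above both neighbours made up 0.537% of the kept genes and calls below both 0.617%. The same rule called 0.687% above and 0.634% below for d5 against d3 and d7, 2.43% and 2.65% for d7, and 2.7% and 2.47% for d10. By this count d3 stood apart from its neighbours in fewer genes than d7 or d10 did from theirs. The split between the directions depended on scaling. It was 61 above against 70 below as deposited, so 46.6% were above, but 91 against 55 with equal array medians (62.3%) and 75 against 57 after quantile normalization (56.8%). The median difference of all kept genes was -0.0045 as deposited and 0.022 with equal array medians.

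The threshold lies in the tail of the distribution, where neighbouring genes on either side of it still differ by little. The robust SD of the d3 difference over all kept genes was 0.0876. Just inside the upper threshold lay Trp53i11 (0.32) and Myh2 (0.33), and just outside it Col8a1 and Slc47a1 (0.32 each). On the lower side Cst6 and Zfp52 were just inside and Egr1 and Gm5779 just outside, all at -0.32 after rounding.

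**Figure D1:**
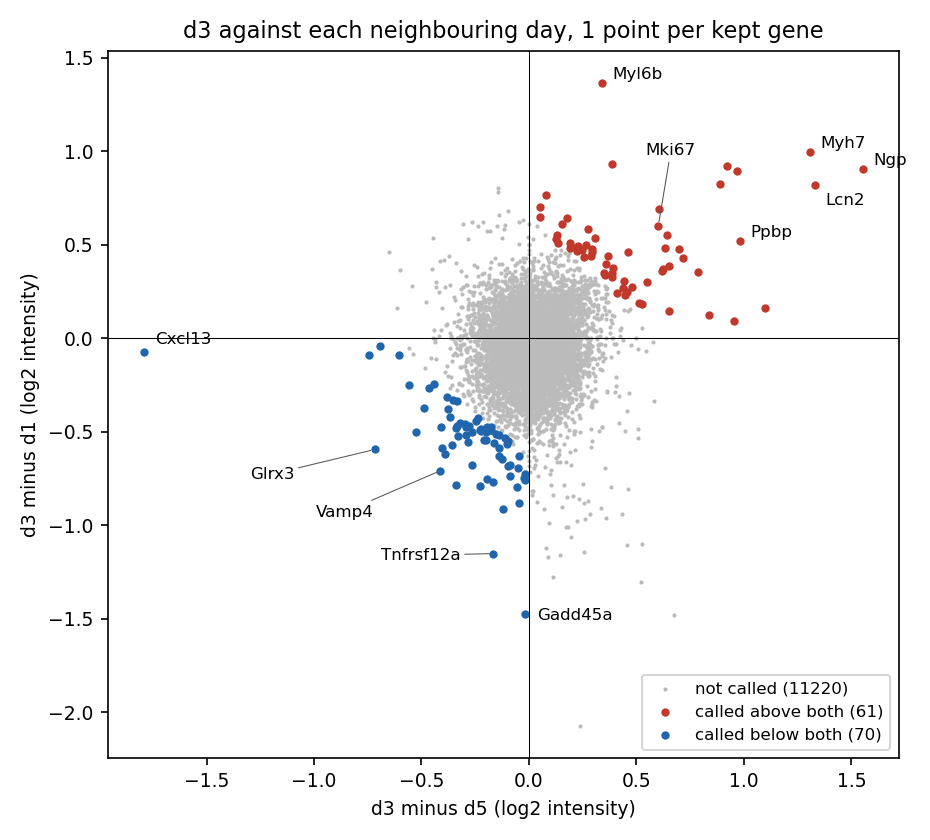
Each point is 1 kept gene, with the log2 intensity at d3 minus that at d5 on the horizontal axis and minus that at d1 on the vertical axis. The 61 red points were called above both neighbours and the 70 blue points below both. Red genes such as Myh7 and Ngp lie far from both axes, whereas Gadd45a lies on the vertical axis because d3 and d5 were alike, and Cxcl13 near the horizontal axis because d3 and d1 were alike.

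The 2 sets had different shapes. Of the 61 genes above, 27 were also past the nearer neighbour by the threshold, 14 were at least 1.5-fold from the mean and 3 at least 2-fold. The nearer neighbour was d1 in 31 of them and d5 in 28. Of the 70 genes below, 16 were past the nearer neighbour by the threshold and 4 reached 1.5-fold. In 56 of these 70 the nearer neighbour was d5, and in 16 it lay within 0.1 on the log2 scale. For most of the lower set the difference therefore lay mainly between d1 and the days after it. Set against d0, 59 of the 61 upper genes were higher at d3, beside 65.1% of all kept genes. Of the 70 lower genes 49 were lower at d3 than at d0, beside 29.4%. Both counts are favoured by the rule, which picked these genes by their d3 value.

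Among proteins of the muscle fibre itself, slow fibre genes had the most calls. Of 15 slow fibre contractile genes on the array, 14 were kept, all 14 had a positive difference, 12 lay above both neighbours, 6 were called above and 0 below. Their median difference was 0.30, against -0.0045 for all kept genes. Without the filter 13 of 15 lay above both and the same number, 6, were called. Of all 19938 genes without the filter, 201 were called above and 121 below. Genes above both by any amount were not counted there.

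Myh7, the slow myosin heavy chain that drives contraction of type I fibres, had intensities of 234, 389, 776, 314, 269.7, 435 and 295 at d0, d1, d3, d5, d7, d10 and d14. The d3 value was the highest of the 7 and 1.00 above d1 and 1.31 above d5 on the log2 scale, or 2.22-fold above the mean of both. Its close relative Myh6, the alpha myosin of heart, did not pass the filter and lay between 114 and 139 on all 7 arrays. Tnnc1, the calcium-binding troponin of slow and cardiac muscle, had intensities of 280.2, 383, 678, 366, 280.1, 465 and 292 over the same days. It was 0.82 above d1 and 0.89 above d5, and at d7 it was back at its d0 level.

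Tnni1, the inhibitory troponin of slow fibres, followed with 479, 812, 1136, 733, 536, 794 and 422 from d0 to d14 and a difference of 0.56. Myl6b, a slow myosin light chain, ran at 195, 216, 556, 439, 288, 268 and 213, so nearly all of its step came between d1 and d3 (1.37). The difference of Myl6b was 0.85, and its d5 value was still above every other day but d3. Myh7, Tnnc1 and Tnni1 had a second, lower maximum at d10, while Myl6b did not.

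Casq2, which stores calcium in the reticulum of slow and cardiac muscle, was called at 0.41, and its d5 value lay only 0.18 lower. The light chain Myl3 was called at 0.42, but it was 0.08 above d5 and its highest value was at d10, so d3 was the start of a plateau. Its partner Myl2, the regulatory light chain, was not called because d5 (1424) exceeded d3 (1289). Tnnt1, the slow troponin T, was below the threshold at 0.29, with 348 at d1, 433 at d3 and 361 at d5. Myh2, the myosin of fast oxidative IIa fibres, was the only fast fibre gene called of 18, at 0.33, and its 11865 at d3 was followed by 10885 at d5 and 11739 at d10. The fast list as a whole had a median of -0.02, whose sign changed to positive with equal array medians.

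The promoters of Myh7 and Tnnc1 are shown because their genes lay farthest above both neighbours in this list. Each is the 250 bases before the transcription start from RefSeq on GRCm38.p6, written 5′ to 3′ on the gene's strand. Myh7 is at chr14:54994627-54994876 on the minus strand, the first listed of 2 entries, and Tnnc1 at chr14:31208062-31208311 on the plus strand. Capitals mark the MCAT motif, CATTCC on either strand, a binding sequence of TEAD factors found in many muscle promoters.
Myh7: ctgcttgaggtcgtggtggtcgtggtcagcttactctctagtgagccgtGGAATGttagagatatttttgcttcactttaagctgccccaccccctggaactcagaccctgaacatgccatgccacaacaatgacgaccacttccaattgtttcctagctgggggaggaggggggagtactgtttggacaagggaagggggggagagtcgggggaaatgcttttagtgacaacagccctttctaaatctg
Tnnc1: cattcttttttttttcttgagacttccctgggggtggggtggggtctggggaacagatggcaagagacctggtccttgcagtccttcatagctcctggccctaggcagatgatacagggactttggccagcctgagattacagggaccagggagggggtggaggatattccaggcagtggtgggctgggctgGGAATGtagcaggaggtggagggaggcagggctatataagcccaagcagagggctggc

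The MCAT letters were in 5 of the 14 slow fibre promoters in the table (35.7%) and in 12.6% of all 27025 promoters of the same length. Of the 6 called slow genes 3 held it. A match is a description of the letters and not evidence of binding.

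**Figure D2:**
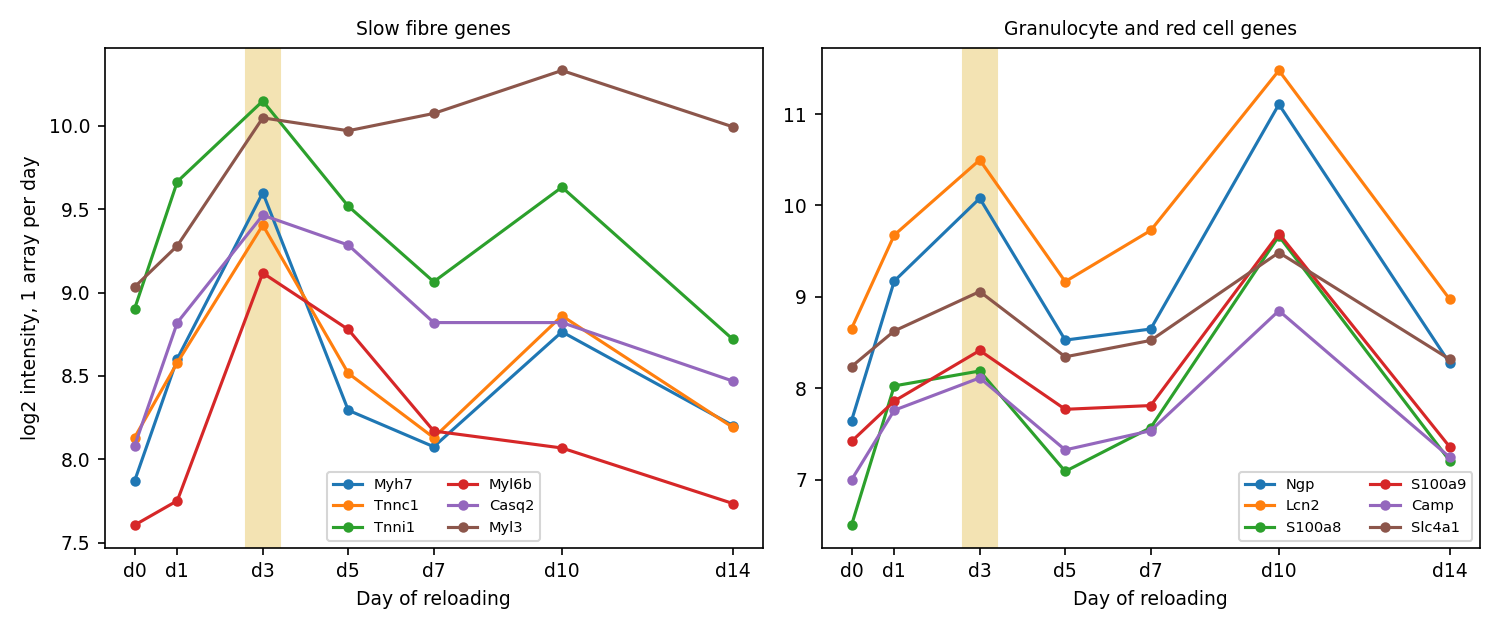
Log2 intensity (vertical axes) is plotted against the day of reloading (horizontal axes), 1 array per point and d3 shaded, for 6 slow fibre genes at left and for 5 granulocyte genes and the red cell gene Slc4a1 at right. Myh7, Tnnc1, Tnni1, Myl6b and Casq2 were highest at d3. All 6 genes at right had a maximum at d3 among the first 4 days and a higher one at d10.

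Granulocyte genes included the largest difference above both neighbours. Ngp, a granule protein of maturing neutrophils, had intensities of 200.1, 577, 1081, 369, 401, 2205 and 309 at d0, d1, d3, d5, d7, d10 and d14. Its d3 difference of 1.23 was the largest among the called genes, yet d10 was higher still. Lcn2, an iron-scavenging lipocalin of neutrophil granules and the acute phase, ran at 402, 818, 1446, 575, 847, 2852 and 502, with a difference of 1.08.

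The calprotectin subunits S100a8 and S100a9, calcium-binding proteins that fill the neutrophil cytoplasm, were called at 0.63 and 0.60. S100a8 was at 260.5 on d1 and 292 on d3, so it lay close to its d1 level and well above the 136 of d5. S100a9 was at 232, 341 and 218 on the same 3 days and so stood clear of both. The antimicrobial proteins Camp (0.57), Ltf (0.49) and Pglyrp1 (0.43) and the eosinophil granule protein Prg2 (0.36) completed this group of 8. The highest of the 7 arrays was d10 for all 8.

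Over the whole neutrophil marker list, 21 genes were on the array and 12 were kept. Of the kept markers 8 lay above both neighbours and 1 below both, 6 were called above and 0 below, and the median was 0.36. Over all 21 the median was 0.15, with 12 above both and 2 below both. The geometric mean intensity of the 21 was 94.7, 136, 148, 108, 126, 270 and 104 from d0 to d14. The list did not move as one. Mpo and Elane, enzymes of primary granules, were highest among these 3 days at d1, with 322, 165 and 129 for Mpo and 389.5, 279 and 196 for Elane at d1, d3 and d5. Ly6g, the surface marker most used to define neutrophils, did not pass the filter but had 95.3, 160.4 and 91.9 on those days.

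Genes of red cells and platelets were called with them. Slc4a1, the band 3 anion exchanger of the red cell membrane, had 395 at d1, 533 at d3 and 325 at d5 (difference 0.57) and 717 at d10. Ppbp, a chemokine stored in platelets, had 1474, 2051, 2944, 1491, 2358, 2524 and 2262 from d0 to d14, with d3 the highest array and a difference of 0.75. Gp9, a subunit of the platelet receptor for von Willebrand factor, was called at 0.40 with its lowest value, 254, at d5.

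All 7 red cell markers on the array had d3 above d5 and 5 were kept, with a median of 0.28. Their geometric mean intensity was 204, 235, 271, 223, 230.2, 304 and 223 in day order. Alas2, the heme synthesis enzyme of red cell precursors, was nearly level between d1 (1340.5) and d3 (1324) and lower at d5 (887). These blood cell levels moved with d3 on the same array as the slow fibre and cell division genes, and their part in those results was not tested.

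Genes of cell division were above both neighbours as well, mostly at low intensity. Of 45 mitosis genes on the array 9 were kept, 8 of these lay above both neighbours and 0 below, and 4 were called above. Their median was 0.24. Over all 45, without the filter, 32 lay above both and 3 below both, 7 passed the threshold above and 0 below, and the median was 0.11. Over all 19938 genes without the filter, 201 passed the threshold above and 121 below, and the median was 0.0038. DNA replication genes had a median of 0.02 over 14 kept of 33 and 0 called.

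Mki67, a protein that coats chromosomes of dividing cells, had intensities of 115, 187, 284, 187, 166, 319 and 129.7 from d0 to d14. It was 0.60 above each neighbour, and d10 was the only array above d3. Ccna2, a cyclin of DNA synthesis and early mitosis, ran at 90.3, 149, 196, 153, 122, 237 and 92.0, with a difference of 0.38. Ccnb2, a mitotic cyclin, had 184, 254 and 207 at d1, d3 and d5 and also 0.38. Cenpa, the histone variant of centromeres, had the same difference of 0.38 but was highest at d3 (276), with 237 at d10.

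H2ac15, a replication-dependent H2A histone, was at 528 on d1 and d5, at 1001 on d3 and at 1066 on d10, a difference of 0.92. Histone genes of this cluster are near-identical, so its signal may include relatives. Asf1b, a chaperone that brings histones to new DNA, was called at 0.37 and was highest on d3. The geometric mean intensity of all 45 mitosis genes was 69.9, 80.2, 89.2, 80.5, 80.6, 90.8 and 75.2 from d0 to d14. Outside the filter, Ckap2l and Kif11, both of the mitotic spindle, had differences of 0.41 and 0.40.

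The promoters of Mki67 and Ccnb2 are printed because both genes were called and both hold the letters of motifs known from cell cycle genes. They are 250 bases before the start from RefSeq on GRCm38.p6, with Mki67 at chr7:135716380-135716629 and Ccnb2 at chr9:70421555-70421804, both on the minus strand. Capitals mark the letters CCAAT of the box bound by NF-Y and TTTGAA of the cell cycle homology region, bound by the MuvB complex. Each was sought on either strand (ATTGG is CCAAT read on the other strand).
Mki67: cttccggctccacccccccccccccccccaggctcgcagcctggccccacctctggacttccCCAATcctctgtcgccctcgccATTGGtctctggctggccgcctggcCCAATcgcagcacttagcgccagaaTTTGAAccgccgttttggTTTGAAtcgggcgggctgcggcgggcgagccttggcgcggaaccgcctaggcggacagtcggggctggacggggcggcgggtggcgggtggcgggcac
Ccnb2: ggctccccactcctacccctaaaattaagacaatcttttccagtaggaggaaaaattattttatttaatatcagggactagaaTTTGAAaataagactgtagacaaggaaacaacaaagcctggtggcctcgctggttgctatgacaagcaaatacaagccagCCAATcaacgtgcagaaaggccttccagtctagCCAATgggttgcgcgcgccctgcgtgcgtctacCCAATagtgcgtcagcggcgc

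CCAAT was in 29 of the 39 mitosis promoters in the table (74.4%) and in 34.5% of all 27025. TTTGAA was in 15 of the 39 (38.5%) and in 16.3% of all, and both were in 13 (33.3%) against 5.73% of all. Among the 3 called genes with an entry CCAAT was in 3 and TTTGAA in 2. In the Mki67 window TTTGAA follows the CCAAT matches, but in that of Ccnb2 it stands before all of them. Here too a match describes letters and is not evidence of binding.

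The matrix proteins called above both neighbours were Postn, Tnc and the cartilage protein Clec3a. Postn, periostin of healing connective tissue, had 292, 833, 1589.8, 1216, 620.2, 957 and 617 from d0 to d14, highest at d3, with a difference of 0.66. Tnc, tenascin-C, which is laid down where muscle and tendon are loaded or repaired, had 176, 275, 379, 276, 221, 294 and 226 and lay 0.46 above each neighbour. Clec3a had 106, 136, 194, 169, 161, 336 and 186, a difference of 0.35 with the highest array at d10, and was the only one called of 7 kept cartilage markers. Of 18 kept matricellular genes 9 lay above both, 1 below both and 2 were called, with a median of 0.08. Ccn2, connective tissue growth factor, just missed the threshold at 0.30 with 1744, 1932 and 1406 at d1, d3 and d5.

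Of 24 kept genes for fibrillar collagens and their processing, 9 lay above both and 2 below both, and 0 were called, with a median of 0.08. Col1a1, the main collagen of tendon and scar, was at 721 on d1, 1111 on d3 and 1335 on d5, so d3 was a point on the way up and not a maximum. Col3a1 took the same course with 454, 572 and 617.

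A further 5 called genes encode acute phase, complement and metal-binding proteins, a group formed by hand from the called genes. Their highest array was d3, whereas Lcn2, also of the acute phase and placed with the granulocyte genes, was highest at d10. Mt2, a metallothionein that binds zinc and copper, had 3021, 6819, 7283, 3761, 3391, 3374 and 3016 from d0 to d14, so d1 and d3 were nearly alike and both were far above the rest. Its relative Mt1 was not called, with 1225 at d1, 1179 at d3 and 828 at d5. Serpina3n, a protease inhibitor of the acute phase, had 377, 667, 873, 556, 323, 446 and 434 and stood clear of both neighbours, with a difference of 0.52. Serpinb1a (0.48), an inhibitor of neutrophil elastase, complement C4b (0.36) and the extracellular chaperone Clu (0.36) were the others. At d10 these 5 genes had differences from d7 and d14 of 0.03 to 0.44, and 1 of them was called there.

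Endothelial genes included 2 of 14 called above and 0 below, with a median of 0.09. Aplnr, the apelin receptor of growing vessels, had 304, 456 and 377 at d1, d3 and d5, a difference of 0.43. Vwf, the von Willebrand factor that endothelium stores and releases, had 259, 328 and 257 (0.35), and both were highest of all 7 arrays at d3. Cdh5, the cadherin of endothelial junctions, and Tie1, a receptor of the same cells, each had 0.28 and were also highest at d3. At d10 Aplnr and Vwf lay -0.08 and -0.01 from the mean of d7 and d14. Car4, outside the list but grouped with them by hand, was called at 0.35. It had 269, 422 and 407 at d1, d3 and d5, only 0.05 above d5, and was highest at d14 (472).

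Leukocyte and interferon-related genes, again grouped by hand from the called genes, made up 10 further calls above. The interferon-stimulated list, which was not drawn from the calls, had 0 of 15 kept genes called, 7 above both and 2 below both, and a median of 0.04. Laptm5, a lysosomal protein of blood cells, was called at 0.35, and Rac2, a GTPase of white blood cells, at 0.38. Of 19 kept macrophage markers 7 lay above both, 1 below both and 1 was called, with a median of 0.07. Cd68, the lysosomal glycoprotein of macrophages, had d3 between its neighbours, with 1346, 1068 and 714 at d1, d3 and d5. The geometric mean of 25 macrophage markers was 329 at d1, 327 at d3 and 292 at d5.

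Among called genes outside these groups was Nmrk2. It encodes a nicotinamide riboside kinase of muscle that makes NAD, and its intensities were 1096, 1082, 1751, 1152, 1437, 1031 and 1093 from d0 to d14. The d3 array was the highest and the difference 0.65, while at d10 it lay -0.28 from the mean of d7 and d14. Iqcn (0.34) was also highest at d3 and lay -0.42 at d10. Ctse, an aspartic protease, had 227, 422 and 216 at d1, d3 and d5 (0.93) and 842 at d10. Ly6a2 (0.59) also had its highest value at d10.

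**Figure D3:**
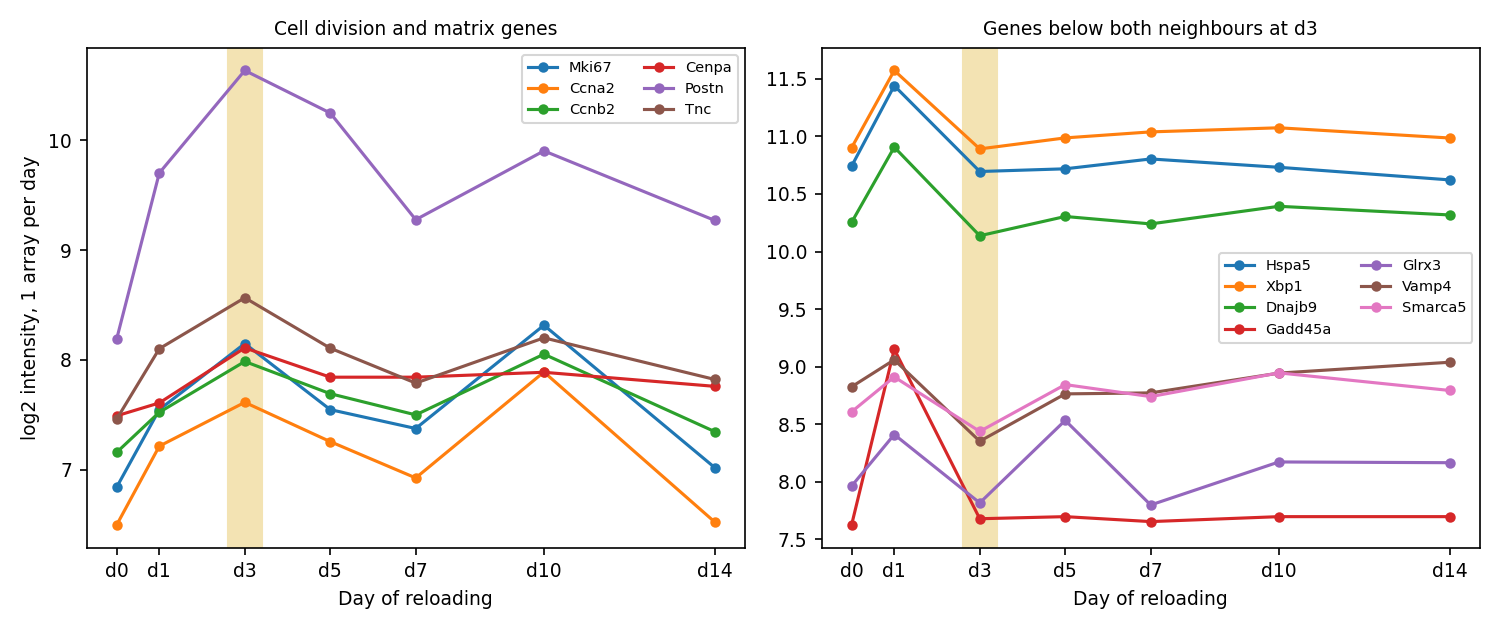
Log2 intensity (vertical axes) is plotted against the day of reloading (horizontal axes), 1 array per point and d3 shaded. At left, Mki67, Ccna2, Ccnb2, Cenpa, Postn and Tnc lie above both neighbours at d3. At right, Hspa5, Xbp1, Dnajb9 and Gadd45a stand high at d1 and are level afterwards, while Vamp4, Smarca5 and Glrx3 are lower at d3 than at both d1 and d5.

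Below both neighbours, genes of protein folding in the endoplasmic reticulum had the most calls of any list. All 19 genes of the list had a negative difference, 9 lay below both neighbours, 0 above both, and 4 were called below, with a median of -0.15. The list's median was -0.31 against d1 and 0.00 against d5. By these medians d1 was the high day, with d3 and d5 level.

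Hspa5, the main chaperone of the reticulum (BiP), had 1711, 2780.3, 1658, 1685, 1788, 1701 and 1576 from d0 to d14. It was 0.75 lower than d1 but only 0.02 lower than d5, and only d1 stood apart among the 7 arrays. Xbp1, a transcription factor of the unfolded protein response, had 1912, 3047, 1899.9, 2030.2, 2105, 2158 and 2029. Dnajb9, a co-chaperone that acts on Hspa5, had 1219.6, 1920.1, 1126, 1264, 1209, 1344 and 1276. Both had their lowest value at d3, and Dnajb9, at a difference of -0.47, was the farthest of the list.

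Manf, a factor secreted under reticulum stress, was called at -0.33. Hsp90b1, the HSP90 of the reticulum, had a step of like size from d1 (1891) to d3 (1215) but was not called, since d5 (1115) was lower still. Selenos, a selenoprotein of reticulum quality control outside the list, was called at -0.43 and lay 0.33 below d5 as well.

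Hspa5 and Hsp90b1 are shown because 1 was called and the other was not although both carry the ER stress element, in which CCAAT and CCACG lie 9 bases apart and which is bound by ATF6 with NF-Y. The 250 bases before the start are from RefSeq on GRCm38.p6, Hspa5 at chr2:34771840-34772089 on the plus strand and Hsp90b1 at chr10:86705445-86705694 on the minus strand. Capitals mark the whole element on either strand, and each element contains a CCAAT.
Hspa5: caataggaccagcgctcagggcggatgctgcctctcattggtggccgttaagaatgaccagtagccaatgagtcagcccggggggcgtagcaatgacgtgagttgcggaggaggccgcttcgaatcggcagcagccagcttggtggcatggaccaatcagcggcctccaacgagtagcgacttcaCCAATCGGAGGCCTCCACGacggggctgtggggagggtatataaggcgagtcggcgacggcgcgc
Hsp90b1: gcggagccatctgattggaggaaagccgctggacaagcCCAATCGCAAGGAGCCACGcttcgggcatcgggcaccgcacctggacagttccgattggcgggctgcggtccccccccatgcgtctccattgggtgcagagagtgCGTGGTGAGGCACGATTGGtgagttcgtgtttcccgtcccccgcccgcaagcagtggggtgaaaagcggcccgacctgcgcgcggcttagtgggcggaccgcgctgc

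The element was in 7 of the 17 promoters of the list found in the table (41.2%) and in 0.122% of all 27025. Those 7 were Calr, Canx, Creld2, Dnajc3, Hsp90b1, Hspa5 and Pdia6. Their differences ran from -0.38 for Hspa5 to -0.02 for Canx, so genes with the element lay over nearly the whole range of the list. The windows of Xbp1 and Dnajb9, both called, did not hold these letters, which says nothing of the factors.

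Genes that build ribosomes followed the reticulum genes. Of 37 kept ribosome biogenesis genes 35 had a negative difference, 8 lay below both, 1 above both and 2 were called below, with a median of -0.15. The median was -0.33 against d1 and 0.02 against d5. Tsr1, a maturation factor of the small subunit, had 642, 379 and 384 at d1, d3 and d5 (-0.39). Ncl, nucleolin, had 1236, 865 and 953 (-0.33). Rrp12, a factor that helps export the subunits, had a like step from d1 (569) to d3 (342) but was not called, because d5 (332) was lower than d3.

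Other lists of protein making and folding genes were also lower than d1 at d3 by their medians, and differed in where d5 lay. Aminoacyl-tRNA synthetases, which charge transfer RNAs, had a median of -0.10 over 18 genes, with -0.26 against d1 and 0.00 against d5. Translation factors had -0.09 over 28 genes, with -0.17 against d1 and 0.03 against d5. Heat shock genes had -0.13 over 19, with -0.31 against d1 and 0.08 against d5, and 15 of the 19 were above d5, so most lay between their neighbours. In these 3 lists 0 genes were called. The TRiC chaperonin, which folds actin and tubulin, had a median of -0.14 over 8 subunits, 5 of them below both and 1 called, and its median was -0.26 against d1 and -0.06 against d5. That one, Cct3, had 1058, 762 and 871 at d1, d3 and d5. All 8 subunits were lower at d3 than at d1, and 3 were above d5. Proteasome subunits had a median of -0.07, with 17 of 41 below both and 0 called. These medians kept their signs under both other scalings.

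Ribosomal proteins themselves had another course. Cytosolic ribosomal proteins had a median of -0.07 with 27 of 56 below both, and the gap was to d5 (-0.06) more than to d1 (-0.01). Rpl14 was the only one called, at -0.39, and its d3 intensity was 116. Ribosomal protein genes have many processed copies, so a dim row such as this one is uncertain. Of 76 mitochondrial ribosomal proteins 22 lay below both and 2 were called. Mrps21 had 4682, 5779, 3766, 4937, 5712, 6076 and 6841 from d0 to d14, the lowest of all arrays at d3. Mrpl54 had 962, 768, 723, 1209.7, 879, 1064 and 1403, so d1 and d3 were both low and d3 lay -0.74 from d5.

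A smaller set was lower at d3 than on both sides by a like amount. Glrx3, a glutaredoxin that carries iron-sulfur clusters, had 249, 340.0, 225, 370.2, 222, 288 and 287 from d0 to d14. It lay 0.59 below d1 and 0.72 below d5, but d7 was as low as d3. Vamp4, a SNARE protein of the trans-Golgi network, had 453, 533, 326, 434, 437, 492 and 526. Its d3 value was the lowest of the 7, with a difference of -0.56.

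Smarca5, the ISWI motor that spaces nucleosomes, had 389.7, 481, 346, 459, 427, 493 and 443 and was likewise lowest at d3 (-0.44). The zinc finger gene Zfp975 had 175, 124 and 178 at d1, d3 and d5 (-0.51), but 113 at d7. It belongs to a family with close copies, so its row is uncertain. Rab7b, a GTPase of endosomes, lay 0.37 below d1 and 0.49 below d5, and Parn, a nuclease that trims poly(A) tails, 0.47 and 0.34. These 6 genes and 10 others were the 16 that lay past the nearer neighbour by the threshold.

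Other calls below were peaks of another day. Gadd45a, a growth arrest and DNA damage gene of atrophying muscle, had 197, 568, 205, 207, 201, 207 and 207 from d0 to d14, so only d1 stood apart and d3 missed d5 by 0.02. Tnfrsf12a, the receptor of the cytokine TWEAK, had 301, 1120.2, 504, 566, 398, 419 and 473. Its d3 value was below both neighbours but above d0, d7, d10 and d14. Set against the mean of all 6 other arrays its difference changed sign, from -0.66 to 0.021.

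Hdac4, a deacetylase that represses muscle genes after denervation, and Gabarapl1, an autophagosome protein, were also high at d1 alone, with 909, 550.0 and 557 for Hdac4 and 1755, 954 and 985 for Gabarapl1 at d1, d3 and d5. Hdac4 has 2 rows, and these values are of the brighter row. It was not called when the rows of a gene were averaged, where 69 of the 70 lower genes stayed called. Gadd45b, in contrast to Gadd45a, was lowest of the 7 at d3 (369.6), with 438 at d1 and 502 at d5. Cxcl13, a chemokine that attracts B cells, had 244, 284, 270.1, 934, 191, 244 and 189. Its difference of -0.93, the largest below, was a single high value at d5 from which d3 and d1 both stood off.

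Among the 62 genes below with a named symbol, 13 act in the nucleolus, ribosome or RNA handling, 7 in membrane traffic and autophagy, 7 are zinc finger factors, 5 act in reticulum folding and quality control, 3 on chromatin and 22 were placed in no group. The groups were formed by hand after the values were seen. The lowest array was d3 for 35 of the 70 genes, against 8.52% of all kept genes, and the highest was d1 for 43, against 29.7% of all kept genes. The rule itself favours both.

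**Figure D4:**
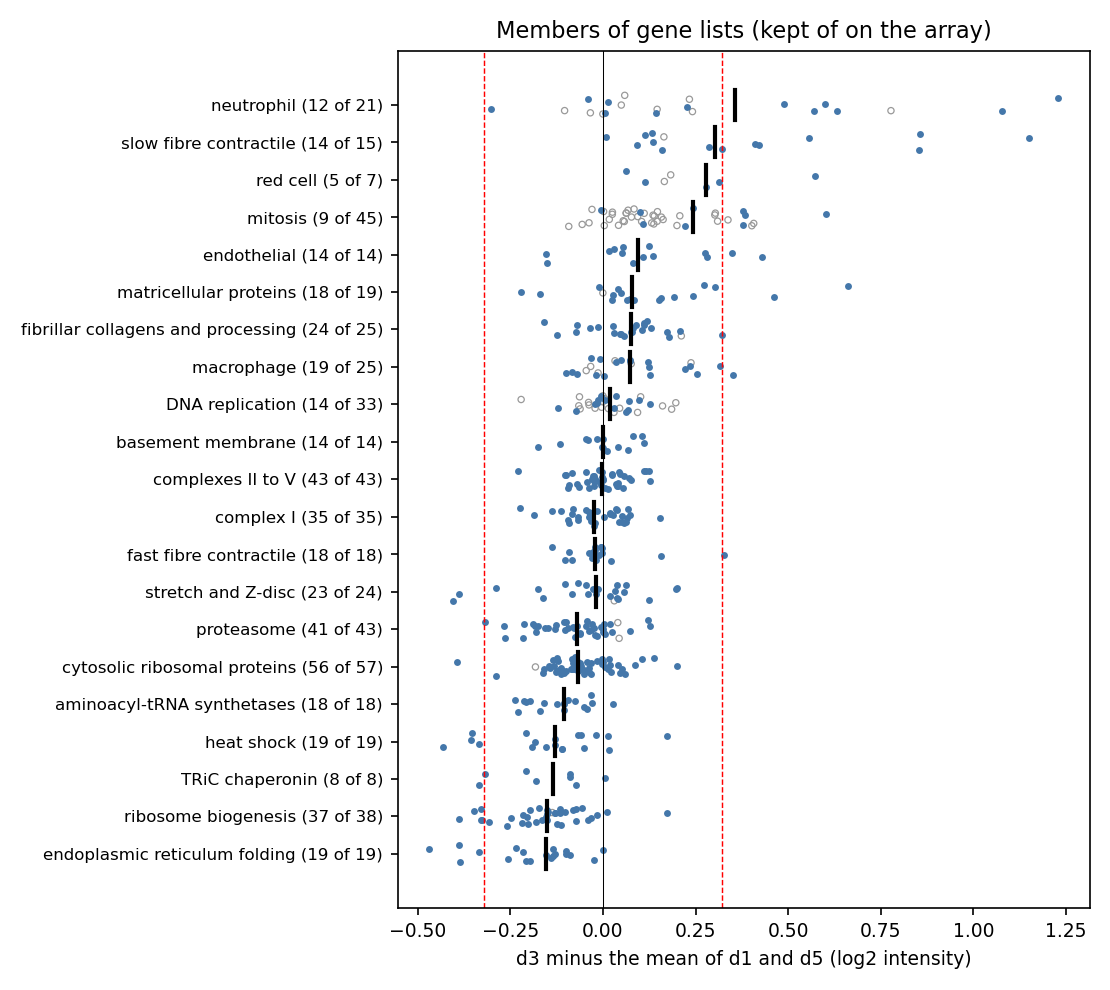
Each row is 1 gene list, each point 1 member, and the horizontal axis is d3 minus the mean of d1 and d5 in log2 intensity. Filled points passed the filter, open points did not, black bars are medians of kept members and red dashed lines mark the threshold. Neutrophil, slow fibre, red cell and mitosis members lie mostly to the right, reticulum folding and ribosome biogenesis members to the left, and most other lists are centred near 0.

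The respiratory chain and stretch lists had d3 on a slope and not at an extreme. Of 35 complex I genes, which pass electrons from NADH, 29 were above d1 at d3 and only 2 above d5, so the median was 0.14 against d1 and -0.14 against d5 and the difference was -0.02. For 43 genes of complexes II to V the counts were 39 and 2 and the medians 0.13 and -0.13. Stretch and Z-disc genes went the other way. Only 6 of 23 were above d1 and 20 were above d5, and Ankrd1, a titin-associated stress protein, had 3007, 1078 and 676 at d1, d3 and d5. None of these 3 lists had a member called. Glycolysis and glycogen genes showed no slope, with 11 of 21 above d1, 10 above d5 and 0 called. Across lists, 13 of 57 medians compared changed sign with a scaling, and all 13 lay between -0.028 and 0.

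The d10 comparison with d7 and d14 uses none of the 3 arrays compared here, and its values are given for the genes above both at d3. The filter mean does include d10, so it favours dim genes that are high at d10. Prg2, Ccna2 and Clec2e were such genes, and the counts below are not free of the filter. Of the 61, 29 were called above at d10 and 4 below, beside 2.7% and 2.47% of all kept genes. By group, all 8 granulocyte genes were called above at d10, by 1.46 to 2.65, as were 4 of 6 genes of cell division and histones, 3 of 7 slow and oxidative fibre genes, 3 of 3 matrix genes, 6 of 10 leukocyte and interferon-related genes, 1 of 3 red cell and platelet genes, 1 of the 5 acute phase, complement and metal-binding genes and 0 of the 3 endothelial genes. Over the whole series, 35 of the 61 were highest at d3, 22 at d10, 2 at d7 and 2 at d14, beside 7.42%, 21.8%, 17.1% and 10.2% of all kept genes. The rule favours a maximum at d3 and bars one at d1 or d5.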

How the data were processed

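RNA was prepared with Trizol and given a biotin label, as the labels' protocols state. Its input was 250 ng by the labelling protocol but 100 ng by the design text, and the conflict remains. Each deposited value is the intensity of 1 transcript cluster on 1 array, not logged by the authors. The submitters' processing notes name Partek, with neither version nor steps. How background was corrected, probes summarized and arrays normalized, and on which build, is not given in the sources used here.

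Nothing (a pseudocount of 0) was added before log2 was taken. The table has 35556 rows, of which 21789 had 1 symbol, 1621 several and 12146 none in the annotation used, and rows with several or none were not named. Entrez IDs matched 21698 rows to RefSeq genes. Where a gene had several rows (999 genes), the row of highest mean was used. The filter kept genes whose mean over all 7 arrays reached the median of the row means (intensity 129). The text names the 15 largest called differences each way, up to 4 members per list and a fixed set of genes; other genes named were chosen after their values were seen, as were the role groups. Predicted genes and small RNAs were left out of that naming.

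The rule, the 60 lists and the naming were chosen with earlier results of these data known. No test was run, since each day is 1 array. Alternatives varied the filter, scaling, pseudocount, row choice, reference and threshold. The scripts (Python 3.11.15, numpy 2.4.6, pandas 2.3.3, matplotlib 3.10.9) were tested on simulated data.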

Additional observations from a re-analysis of the deposited data

How the results depend on the processing

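The 61 genes above and 70 below both neighbours became 201 and 121 with no filter, 14 and 4 at 1.5-fold, 319 and 370 at a looser threshold of 0.20 on the log2 scale, and 27 and 16 when the main threshold had to be passed against the nearer neighbour. Against d5 alone there were 130 above and 85 below, and against d1 alone 196 and 650, so the d1 array decides much of the lower set: 24 of the 70 were also called against d5 alone and 62 against d1 alone. Of the 61, 40 and 48 were. The other 17 counts, the 85 among them and the rest under the remaining filters, both scalings, a pseudocount of 32, the mean of a gene's rows, weighted neighbours and the mean of the 6 other arrays, lay within 1.5 times the main count. Like counts did not mean the same genes. Against the mean of the 6 other arrays, 42 of the 61 and 24 of the 70 stayed called. With weighted neighbours 51 and 45 did, and with a pseudocount of 32, 43 and 47. The genes compared were the called genes with a named symbol and the fixed set. Of their values under the alternatives, 1109 moved by less than the robust SD of 0.0876 and 307 by more. Among called genes 2 changed sign: Tnfrsf12a (0.021) and Zfp52 (0.026), both against the mean of the 6 other arrays. Sign changes of uncalled genes were not counted apart: Ankrd1 went from -0.40 to 0.67 against d5 alone. Filter settings cannot move a gene's value, and equal array medians shift all genes alike, so those values were bound to move little. Among list medians 627 moved by less than 0.0876 and 57 by more. No paired analysis was possible because each day is 1 array. Detection above background was not available per gene, 19 of the 61 upper genes were in the dimmest quartile of kept genes, and a low row can understate a change.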

Other observations

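B cell precursor genes were mostly too dim to keep. Of 9 B cell markers on the array 1 was kept, and without the filter 7 lay above both neighbours, 1 below both and 3 passed the threshold above. Igll1, part of the surrogate light chain of precursor B cells, had 115, 109.5, 150.4, 99.9, 125, 115 and 115 from d0 to d14, and Vpreb3, of the same cells, 104, 109, 154, 114, 123, 129.6 and 123. Both were highest at d3. Bone and osteoclast markers were likewise dim, with 4 of 13 kept, and without the filter 10 lay above both neighbours and 0 below both, none past the threshold. Of the 4 kept, 2 lay above both. The geometric mean intensity of the 13 was 113.8 at d1, 113.4 at d3 and 101 at d5, so as a list they did not rise from d1 to d3. Beside these counts, 201 of all 19938 genes passed the threshold above without the filter and 121 below. Genes above both by any amount were not counted without the filter.

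The eosinophil marker Epx, a granule peroxidase that did not pass the filter, had 61.0, 75.4 and 58.7 at d1, d3 and d5 and 119.6 at d10. Of 10 adipocyte markers, 7 were kept and 1 was called below, Retn, the hormone resistin, with 835, 564 and 721 on those 3 days. Slc40a1, the iron exporter ferroportin, was called below with its lowest value at d3 (274) and 384 and 318 at d1 and d5.

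Rows with no symbol were counted by the same rule. Of 4378 such rows past the filter, 204 (4.66%) lay above both neighbours and 312 (7.13%) below both by the threshold, beside 0.537% and 0.617% of the kept genes with a symbol.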
